A study of Mus musculus with 9 samples.

Results

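The 3 control libraries of a mouse hepatoma line were described here without their treated counterparts, as the state of the cells without added ligand. They are 3 of the 9 libraries of a study of the aryl hydrocarbon receptor (AhR), in which the other libraries came from cells given FICZ or tryptamine for 6 h. The cells are given as Hepa 1 WT by source and as HC1C by line. They are termed untreated in 1 label, but the protocol speaks of vehicle, so they are called controls. Their time is given as 6 h, as for the treated cells, so they are not a sample from before treatment. Total RNA was the starting material, and how the libraries were made from it is not described here. Whether the 3 libraries came from separate cultures is not stated, so their spread may be technical, and a single cultured line stands for the tumour. Each of 28250 genes was represented by its transcript row with the highest mean read count. Levels are CPM (a gene's count scaled to a library total of 1000000 over these rows), a measure that follows both abundance and transcript length. Levels of single genes were therefore compared as CPM per kb, and plain CPM serves only to say which genes took most counts and to sum lists within a library. A gene was called expressed at 1 CPM or more in each of the 3 libraries. A gene with more than 3 counts in all but below that level was called a trace, and a gene with 0 to 3 counts over the 3 libraries was called at the floor. A sum of 3 counts over the 3 libraries corresponds to 0.0755 CPM, which is the upper limit that a count of 0 allows, for counting error only.

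Hepatocytes make most plasma proteins, store and release glucose, run the urea cycle and secrete bile, under a network of transcription factors that includes the FOXA and C/EBP families. Hepatoma lines keep some of this programme and lose other parts of it in culture. Hepa 1 lines are a standard model of AhR signalling: AhR waits in the cytoplasm bound to Hsp90, and with ligand it moves to the nucleus, pairs with Arnt and switches on genes such as Cyp1a1. Monoamine oxidases oxidise amines such as tryptamine to aldehydes. The question was therefore which liver functions, which parts of the AhR pathway and which amine-handling enzymes were present in the controls.

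The libraries held 14366146, 14146396 and 11241199 counts over the gene rows in replicates 1, 2 and 3. Replicate 3 stood apart from the other two. Over the 10919 expressed genes the Pearson correlation of log2 CPM was 0.993 between replicates 1 and 2, 0.953 between 1 and 3 and 0.955 between 2 and 3. These correlations are across genes, which are not independent and share library depth. In replicate 3 the rows of short transcripts were higher and those of long transcripts lower than in replicates 1 and 2, as described at the end. Values are therefore given for each library, and the SD over the 3 libraries (n = 3) is widened by that difference. Without replicate 3 the number of expressed genes was 11148, and the liver lists gave the same counts as with it.

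Of the 28250 genes, 10919 (38.7%) were expressed, 3287 were traces and 14044 were at the floor, 12243 of them with no count at all. Matching by gene identifier to RefSeq found 23205 genes, and 9884 of the 19750 protein-coding ones were expressed (50.0%). Most genes of the lists below are protein-coding, so a list's share is best read beside 50.0% as well as 38.7%. Of the 2511 long noncoding RNA genes, 275 were expressed. Protein-coding genes took between 96.1% and 96.8% of the counts in each library. The counts were spread widely: the 10 highest genes took 3.63%, 3.61% and 3.88% of the counts in replicates 1, 2 and 3, and the 100 highest took 14.9%, 14.9% and 16.1%. Of the expressed genes, 5599 lay between 10 and 100 CPM per kb, 777 between 100 and 1000, and 33 above 1000.

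The genes that took the most counts, given in CPM, were Pabpc1 (the poly(A)-binding protein, 5133 ± 246), Actb (beta-actin, 4875 ± 365), Eef1a1 (a translation elongation factor, 4367 ± 256), Hsp90ab1 (the chaperone Hsp90 beta, 4137 ± 24.4) and Eef2 (a second elongation factor, 3813 ± 198). Others among the 20 highest by CPM were Fn1, Ncl, Atp5b, Krt18, Pkm2, Vim, Fth1, Lgals1, Krt8, Scd2, Rpl4, Flna, Atp5a1 and Eif4g2. None of the 69 liver secreted protein genes described below was among them, although fibronectin (Fn1) is itself also found in plasma. The group holds the translation machinery, 3 filament proteins (the keratins Krt8 and Krt18 and the mesenchymal filament vimentin), fibronectin as a matrix protein, ATP synthase subunits and the pyruvate kinase gene Pkm2. Fn1 had 56255, 52195 and 15963 counts, so its place rested on replicates 1 and 2.

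Per kb, the galectin gene Lgals1 reached 2915 ± 576 CPM per kb, ribosomal Rpl41 2703 ± 924, Actb 2580 ± 193, Eef1a1 2440 ± 143 and Krt18 1854 ± 522. Ribosomal protein genes (Rpl41, Rps26, Rpl32, Rpl4, Rpl8 and Rplp0) made up 6 of the 20 highest by this measure. Also in that group, LOC100503203 (3061 ± 446 CPM per kb), LOC100504670 and LOC100502825 are predicted genes that may share reads with near-identical copies, so their levels are uncertain. The per-kb value depends on which row stands for a gene. For 623 of the 10919 expressed genes, a row at most 2/3 as long held at least 95% of the counts. Ncl, the nucleolar protein nucleolin, had 361 CPM per kb on its row of 8257 bases and 1131 ± 248 on a row of 2518 bases. Fth1, the ferritin heavy chain, had 1147 ± 286 on 2062 bases and 2693 ± 675 on 865 bases.

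**Figure D1:**
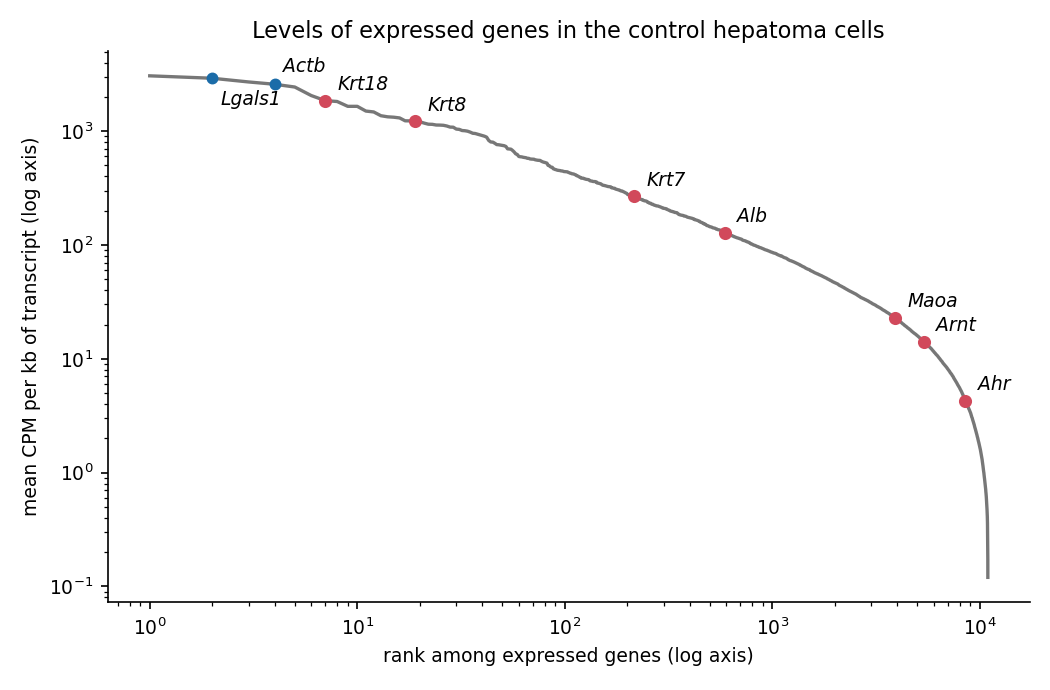
Mean CPM per kb of transcript of the 10919 expressed genes (vertical log axis, 3 control libraries) against their rank (horizontal log axis); red points are the 7 marker genes and blue points Lgals1 and Actb. Krt18 (rank 7) and Krt8 (rank 19) lie at the upper end, Alb at rank 588 and Ahr at rank 8514.

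The 7 marker genes of the line were expressed in every control library, over a range from Krt18 to Ahr. Krt18, a simple-epithelium keratin that pairs with Krt8 in hepatocytes, had 31237, 30759 and 38664 counts in replicates 1, 2 and 3, or 1553, 1553 and 2457 CPM per kb. Krt8 had 29508, 28492 and 28832 counts, or 1138, 1116 and 1421 CPM per kb. The keratin pair was thus of like size, with a ratio of Krt8 to Krt18 per kb of 0.677 ± 0.0853 (SD, n = 3). Krt7, a keratin of bile duct cells that adult hepatocytes lack, had 13829, 13278 and 15492 counts, or 269 ± 60.7 CPM per kb on a row of 4071 bases. On a row of 1562 bases with nearly the same counts Krt7 came to 692 ± 157 CPM per kb, which is still below Krt8.

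Albumin, the main plasma protein, had 3679, 3451 and 3223 Alb counts, or 125, 119 and 140 CPM per kb. Krt18 stood 14.3 ± 2.79 times above Alb per kb. Maoa, monoamine oxidase A, had 1434, 1297 and 1078 counts, or 23.0 ± 0.978 CPM per kb, the smallest SD of the 7 relative to the mean. Arnt, the partner of AhR, had 1021, 881 and 574 counts, or 16.3, 14.3 and 11.7 CPM per kb. Ahr itself had 362, 378 and 210 counts, or 4.59, 4.86 and 3.40 CPM per kb, which placed it at rank 8514 of the expressed genes. In the order Krt18, Krt8, Krt7, Alb, Maoa, Arnt, Ahr, no gene's range over the 3 libraries overlapped that of the next. The closest pairs were Krt18 over Krt8 (1.51-fold between the means) and Maoa over Arnt (1.64-fold). With the median length of all the rows of a gene, Ahr came to 8.76 CPM per kb and remained below Arnt at 22.3.

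Most genes of liver plasma proteins were at the floor, and a small group led by albumin and alpha-fetoprotein was not. Of 69 such genes in the table, 11 were expressed (15.9%, against 38.7% of all genes), 4 were traces and 54 were at the floor, 43 of them with no count. Afp, the fetal counterpart of albumin that hepatomas often make, had 2231, 1705 and 2673 counts, or 75.3, 58.4 and 115 CPM per kb. Alb exceeded Afp per kb in each library, by 1.67-fold, 2.04-fold and 1.22-fold. The retinol carrier Rbp4 had 477, 521 and 516 counts (31.1 ± 5.26 CPM per kb). The copper protein ceruloplasmin, Cp, had 1693, 1732 and 1126 counts (29.6 ± 3.07 CPM per kb), and complement C3 had 1678, 1474 and 989 (20.1 ± 2.81). Alb and these 4 genes thus stood clear of the floor in each library.

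The other expressed members were low. Itih2, an inter-alpha-trypsin inhibitor chain, reached 7.07 ± 1.61 CPM per kb, and the apolipoproteins Apoa2 and Apoe reached 5.58 ± 1.93 and 3.45 ± 0.839. Fetuin B (Fetub) had 2.72 ± 0.750 CPM per kb and coagulation factor F5 1.05 ± 0.378. By contrast, the thyroid hormone carrier Ttr, fetuin A (Ahsg), the bikunin precursor Ambp and vitronectin (Vtn) had no count in any library. The haemoglobin scavenger Hp had 0, 0 and 1 counts and the haem carrier Hpx 0, 3 and 0. Apoa1, Apob, prothrombin (F2) and the fibrinogen genes Fga, Fgb and Fgg also had none, and the acute-phase genes Saa1, Saa2, Orm1 and Crp had none. The Serpina family of protease inhibitors includes alpha-1-antitrypsin. Of its 23 genes, 1 was expressed (4.35%, against 38.7% of all and 50.0% of protein-coding genes), Serpina3h, at 0.951 ± 0.492 CPM per kb.

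Apoc2, Apoc4, Cfb and Trf were named only in rows that the table assigns to several loci, and these cannot be split. The row Srprb/Trf, which holds the iron carrier transferrin beside a signal-recognition receptor gene, had 7176, 6365 and 5440 counts. The row C2/Cfb, which holds a neighbouring pair of complement genes, had 727, 694 and 607. The row Apoc4/Apoc2 had 6, 19 and 33. Counting members through such rows raised the number expressed from 11 to 13.

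The promoters of 2 expressed and 2 unexpressed members are shown because albumin and alpha-fetoprotein, neighbours on 1 chromosome, were on, while fibrinogen alpha and beta, neighbours on another, had no counts. Sequences are RefSeq promoters on GRCm38.p6, from 250 bases before to 50 bases after the start of transcription, 5′ to 3′ on the gene's strand. Capitals mark GTTAAT on either strand (read as ATTAAC on the opposite one), a short motif that the 4 windows share. Alb lies at chr5:90460620-90460919 on the plus strand, Afp at chr5:90490464-90490763 on the plus strand, Fga at chr3:83025903-83026202 on the plus strand and Fgb at chr3:83049814-83050113 on the minus strand.
Alb: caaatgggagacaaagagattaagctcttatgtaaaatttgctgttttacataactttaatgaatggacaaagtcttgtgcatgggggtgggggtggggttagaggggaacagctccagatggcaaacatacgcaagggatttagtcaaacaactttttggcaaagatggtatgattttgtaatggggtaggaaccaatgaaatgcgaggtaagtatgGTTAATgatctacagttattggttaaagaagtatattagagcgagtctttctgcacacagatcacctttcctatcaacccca
Afp: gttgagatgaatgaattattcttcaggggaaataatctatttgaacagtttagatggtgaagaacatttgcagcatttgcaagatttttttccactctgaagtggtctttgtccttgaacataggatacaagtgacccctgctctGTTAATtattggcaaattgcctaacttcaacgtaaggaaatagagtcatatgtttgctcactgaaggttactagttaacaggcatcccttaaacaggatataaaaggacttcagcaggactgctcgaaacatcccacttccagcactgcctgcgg
Fga: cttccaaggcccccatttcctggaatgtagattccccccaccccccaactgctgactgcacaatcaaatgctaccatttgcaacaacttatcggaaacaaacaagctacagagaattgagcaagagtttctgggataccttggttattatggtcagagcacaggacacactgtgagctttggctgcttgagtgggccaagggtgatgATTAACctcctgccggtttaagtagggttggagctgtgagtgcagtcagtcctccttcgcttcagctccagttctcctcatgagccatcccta
Fgb: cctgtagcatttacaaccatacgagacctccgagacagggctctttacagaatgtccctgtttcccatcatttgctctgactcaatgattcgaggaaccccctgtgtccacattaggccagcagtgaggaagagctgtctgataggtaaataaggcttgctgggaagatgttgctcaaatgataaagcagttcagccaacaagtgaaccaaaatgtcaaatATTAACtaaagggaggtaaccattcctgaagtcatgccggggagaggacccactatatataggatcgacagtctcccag
Each of the 4 windows held the motif once, starting 32 bases before the start of transcription in Alb, 105 in Afp, 43 in Fga and 29 in Fgb. The motif is marked as one that the 4 windows share, so its presence in both the expressed and the unexpressed pair is no result. Of all 32851 promoters in the reference table, 7.10% held GTTAAT, with 4.14% of the promoters of all expressed genes and 9.14% of those of all genes at the floor. Among the liver plasma protein genes, the motif was in 4 of 16 promoters of expressed genes (25%), those of Alb, Afp, Apoe and Cp, and in 14 of 43 promoters of genes at the floor (32.6%). A match describes the letters and not a bound site.

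Among 25 liver transcription factors, 13 were expressed and 12 were at the floor, with no traces between. The expressed share of 52.0% was near the 50.0% of protein-coding genes, against 38.7% of all genes. The unfolded-protein factor Xbp1 was highest at 35.4 ± 3.67 CPM per kb, followed by Tbx3 (34.3 ± 3.19), which marks hepatoblasts. The pioneer factor Foxa2 had 423, 435 and 447 counts (16.1 ± 2.71 CPM per kb), Gata4 14.1 ± 1.56 and Foxa1 6.32 ± 0.151. The bile acid receptor Nr1h4 (FXR) had 262, 239 and 170 counts, and Rxra, its dimer partner, had 929, 969 and 612. Cebpb, a factor of the acute-phase response, had 155, 165 and 402 counts, so replicate 3 was more than 2-fold above the others.

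Hnf4a, the central factor of the mature hepatocyte, had no count in any library. Hnf4g, Foxa3, Cebpa, Onecut1 and Prox1 also had none, nor did the xenobiotic receptor gene Nr1i2 (PXR) or the fatty acid receptor gene Ppara.

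A call can rest on the row that stands for a gene. With RefSeq rows, 12 of the 25 factors were expressed. Nr1i3, the gene of the xenobiotic receptor CAR, had 956, 894 and 1058 counts on the row used but 22, 20 and 25 on its RefSeq row, or 1.25 ± 0.322 CPM per kb there. Its level is therefore uncertain. Across the 10035 expressed genes with a RefSeq row, that row held under 50% of the counts of the row used for 301 genes.

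Genes of liver metabolism were also expressed in a smaller share than all genes. Of 47 enzymes and bile transporters, 11 were expressed (23.4%), 5 were traces and 31 were at the floor. The fatty acid desaturase Scd1 led with 6046, 5919 and 3126 counts (77.0 ± 16.9 CPM per kb). Of the urea cycle, Ass1 had 1512, 1653 and 1392 counts (68.0 ± 5.53 CPM per kb) and Asl 386, 350 and 381, while Otc and Arg1 had none and Cps1 had 4, 2 and 0. The enzymes that make argininosuccinate and cleave it were thus present, and those on either side in the liver cycle were at or near 0.

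Glul (glutamine synthetase, 34.1 ± 2.06 CPM per kb) and the bile canalicular pump Abcc2 (19.6 ± 7.65) were also expressed. Abcc2 had 1895, 1798 and 654 counts, with replicate 3 more than 2-fold lower. Of gluconeogenesis, Pck1, G6pc and Fbp1 had no counts, while the pyruvate carboxylase gene Pcx had 160, 115 and 75. Of the bile acid genes, Cyp27a1 had 6.28 ± 0.481 CPM per kb. Cyp7a1, the rate-limiting enzyme of bile acid synthesis, had 17, 32 and 22 counts, near the limit for expression.

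**Figure D2:**
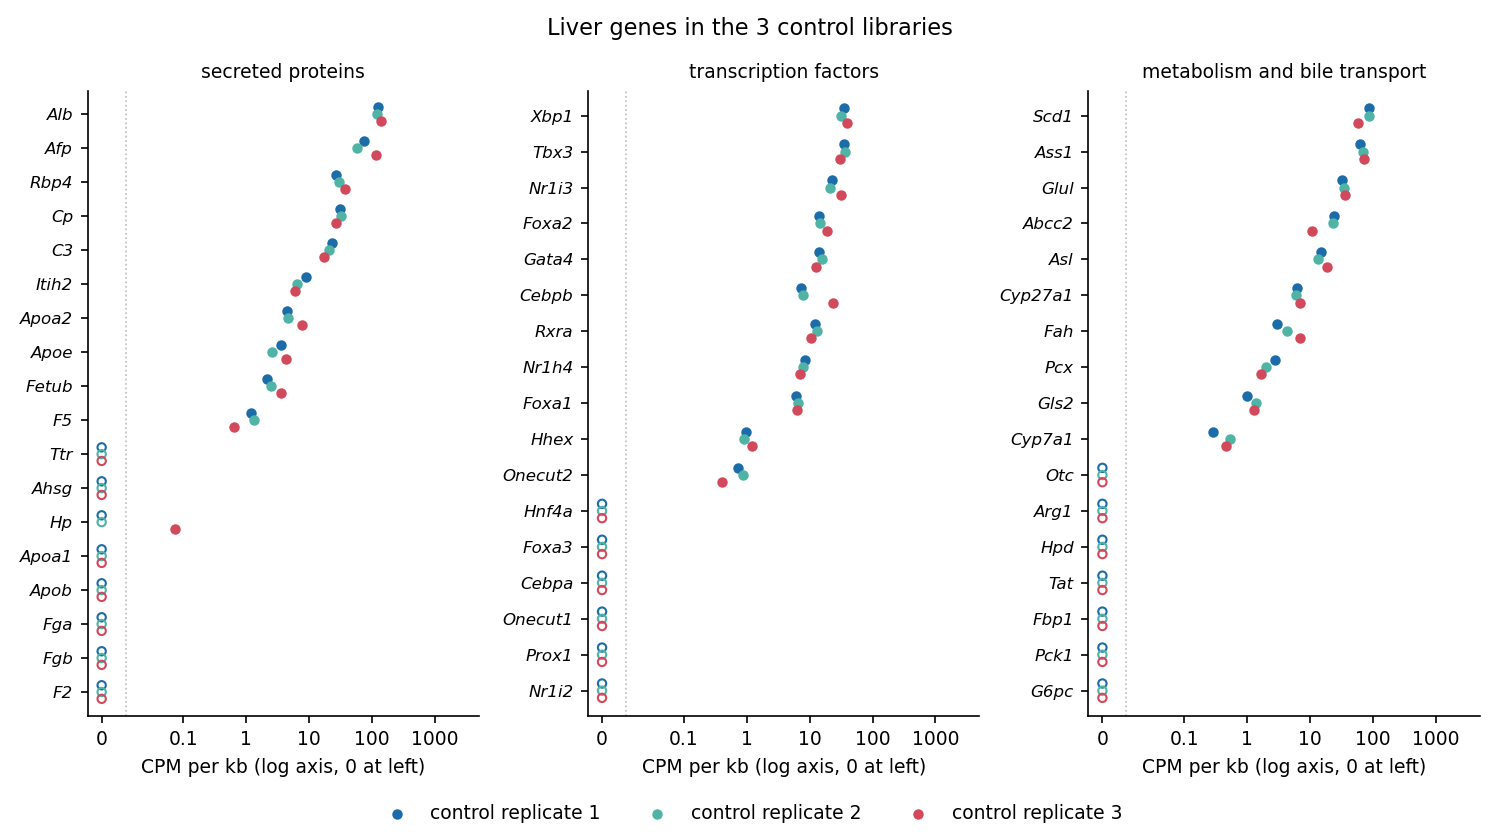
CPM per kb (horizontal log axis, 0 set at the left of the dotted line) of liver genes in each control library; filled points are libraries with counts and open points libraries with none. Alb and Afp lie near 100, 10 of the 18 plasma protein genes drawn are expressed, and Ttr, Hnf4a, Otc and Pck1 are at 0 in all 3 libraries.

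Glycolysis genes were largely present, without the liver forms of pyruvate kinase and of the glucose transporter. Of 29 genes, 20 were expressed (69.0%), 2 were traces and 7 were at the floor. Of all genes 38.7% were expressed, and of protein-coding genes 50.0%. Pkm2 had 35088, 35413 and 31920 counts (1131 ± 93.2 CPM per kb), while Pklr, the liver pyruvate kinase, had none. Aldoa, the aldolase of muscle and dividing cells, had 15306, 15519 and 14472 counts (761 ± 79.5 CPM per kb). The hexokinase gene Hk1 had 4031, 4268 and 2651 counts. Ldha reached 1150 ± 159 CPM per kb and Ldhb had no count. The glucose transporter Slc2a1 had 1990, 2273 and 1600 counts, against 0, 2 and 0 for the liver transporter Slc2a2. Gapdh (3001, 2849 and 2415 counts) has many near-identical pseudogenes and its low value here is uncertain.

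The families of drug-metabolising enzymes and transporters differed in the share expressed, against 38.7% of all genes and 50.0% of protein-coding ones. Of 97 cytochrome P450 genes, 14 were expressed (14.4%), led by the orphan Cyp20a1 (27.7 ± 2.57 CPM per kb) and Cyp1a1 (23.3 ± 1.69). Of 12 UDP-glucuronosyltransferase genes, 2 were expressed (16.7%), Ugt2b34 with 1262, 1293 and 897 counts and Ugt1a2 at 2.78 ± 0.248 CPM per kb. Of 16 sulfotransferase genes, 2 were expressed (12.5%), Sult1c2 and Sult2b1. Of 19 glutathione S-transferase genes, 12 were expressed (63.2%), led by Gsto1 (372 ± 59.7 CPM per kb) and Gstm1 (144 ± 22.5). Of 50 ABC transporters, 28 were expressed (56.0%), among them the urate and drug pump Abcg2 at 36.9 ± 1.12 CPM per kb.

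AhR and its partners were nearly complete. Of 21 genes of the receptor complex and its cofactors, 19 were expressed (90.5%, against 38.7% of all and 50.0% of protein-coding genes). The chaperone Hsp90ab1 had 59113, 58894 and 46474 counts, or 1642, 1661 and 1650 CPM per kb, nearly the same level in the 3 libraries. The second Hsp90 gene, Hsp90aa1, lay 9.26 ± 0.0591 times lower per kb. The p23 co-chaperone Ptges3 had only 19, 31 and 58 counts of its own, but the row it shares with Baz2a had 1735, 1908 and 2947. Arnt stood 3.30 ± 0.328 times above Ahr per kb. Arnt2, the neuronal paralogue of Arnt, had 0, 2 and 2 counts, and the AhR repressor Ahrr had 1, 0 and 0.

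Several cofactors had lower counts in replicate 3, all on transcripts of more than 6 kb: Ncor1 (2576, 2437 and 671 counts), Ep300 (1988, 1829 and 409) and Crebbp (896, 822 and 145). Over the 19 expressed members the median log2 ratio of replicate 3 to the mean of replicates 1 and 2 was -0.47, beside 0.02 over all genes, and their median transcript length was 6004 bases.

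In the controls, 10 of 14 AhR target genes were expressed (71.4%, against 38.7% of all and 50.0% of protein-coding genes). Cyp1a1, the classical target, had 944, 805 and 683 counts, or 25.1, 21.7 and 23.2 CPM per kb. Its level without added ligand thus lay beside that of Maoa. Aldh3a1, an aldehyde dehydrogenase, had 969, 834 and 1026 counts (42.0 ± 9.69 CPM per kb), and the quinone reductase Nqo1 had 491, 326 and 416 (20.2 ± 4.76). The antioxidant factor Nfe2l2 was highest at 89.2 ± 4.39 CPM per kb. Tiparp, which modifies and restrains AhR, had 8.29 ± 0.225 CPM per kb. Cyp1b1 had 74, 72 and 34 counts (0.862 ± 0.236 CPM per kb), and Cyp1a2, the liver paralogue of Cyp1a1, had 0, 0 and 1. Gsta1 and Lrat had no counts and Ahrr was at the floor.

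Maob, the second monoamine oxidase, had no count in any library, against 1434, 1297 and 1078 for Maoa. The enzymes that act on the aldehydes formed by amine oxidation were abundant: the reductase Akr1a4 had 458 ± 59.4 CPM per kb, and the dehydrogenases Aldh1a1 345 ± 23.8, Aldh2 87.0 ± 9.92 and Aldh9a1 50.9 ± 1.00. The Aldh2 value depends on the row: its RefSeq row of 2207 bases, with 99.9% of the counts, gave 156 ± 18.3 CPM per kb with library totals over RefSeq rows. Il4i1, a secreted amino acid oxidase that acts on phenylalanine and tryptophan, had 1839, 1855 and 1528 counts (51.7 ± 1.57 CPM per kb).

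Genes of tryptophan breakdown were split. Ido1 had no count, Tdo2 had 0, 4 and 0, and Kmo had 2, 0 and 0, while Haao and Aadat had none. The kynurenine aminotransferase gene Ccbl2 had 755, 649 and 541 counts, its paralogue Ccbl1 had 40, 40 and 28, and the kynureninase gene Kynu was a trace with 0, 12 and 5. The formamidase gene Afmid was counted only in a row shared with Syngr2 (3169, 2822 and 3025), which cannot be split. Of serotonin synthesis, Tph1 had no count and Tph2 had 37, 25 and 36. Ddc, the decarboxylase that makes tryptamine from tryptophan, was a trace with 3, 9 and 0 counts. Of the list of 34 amine and tryptophan genes, 15 were expressed (44.1%), 8 were traces and 11 were at the floor. That share lay between the 38.7% of all genes and the 50.0% of protein-coding genes. The tryptophan transporter pair Slc7a5 and Slc3a2 had 81.8 ± 8.27 and 72.7 ± 6.22 CPM per kb.

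**Figure D3:**
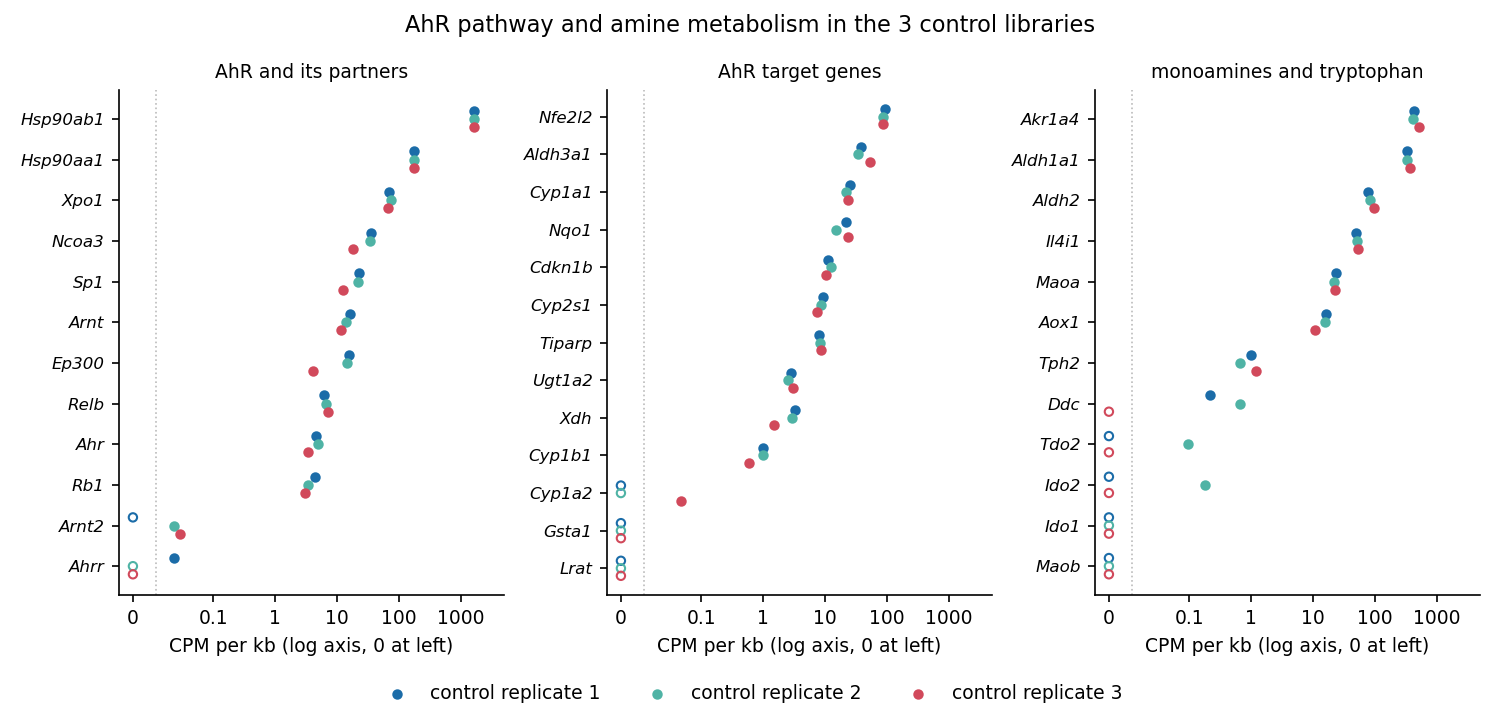
CPM per kb (horizontal log axis, 0 set at the left of the dotted line) of AhR and its partners, of AhR target genes and of amine and tryptophan enzymes in each control library; filled points are libraries with counts and open points libraries with none. Hsp90ab1 lies near 1650 and Ahr near 4.28, Cyp1a1 near 23.3, and Maob is at 0 in all 3 libraries.

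Cell-cycle genes were broadly present. Of 45, 40 were expressed (88.9%, against 38.7% of all and 50.0% of protein-coding genes), with a median of 72.6 CPM per kb among those 40. Cyclin D1, Ccnd1, had 23297, 24818 and 18958 counts (445 ± 17.5 CPM per kb), and its partner kinase Cdk4 had 277 ± 53.6. The replication genes Mcm3 (144 ± 2.91), Pcna (136 ± 14.2) and Rrm1 (140 ± 5.83) and the topoisomerase Top2a (209 ± 38.9) were also high. Trp53 had 3151, 3102 and 2540 counts (119 ± 2.05 CPM per kb), beside its targets Cdkn1a (91.3 ± 7.14) and Mdm2 (87.6 ± 7.19). Cdkn2a and Cdkn2b, neighbouring inhibitors of Cdk4, had no count in any library, nor did Ccnd2 or Mycn.

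Fetal and imprinted genes were split. Of 27, 7 were expressed (25.9%), 5 were traces and 15 were at the floor. The expressed share was below the 38.7% of all genes. Besides Afp, the fetal RNA-binding proteins Igf2bp3 (1748, 1859 and 1232 counts) and Igf2bp1 (1569, 1648 and 1054) and the surface glycoprotein Cd24a (725, 724 and 724) were present. Scd2, the desaturase of fetal liver and brain, had 32761, 33613 and 20069 counts, or 394 ± 58.2 CPM per kb, above adult-type Scd1. The imprinted genes H19 and Dlk1 had no count, and Igf2, the growth factor beside H19, had 0, 0 and 4. Gpc3, a glypican used as a hepatoma marker, had 15, 38 and 13 counts.

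Growth factor receptors were led by Axl (6318, 6377 and 3634 counts, 79.6 ± 13.9 CPM per kb), the hepatocyte growth factor receptor Met (3789, 3953 and 1807) and Tgfbr2 (1970, 1979 and 1139). Of 29 receptors and ligands, 14 were expressed (48.3%), 6 were traces and 9 were at the floor. The expressed share was near the 50.0% of protein-coding genes, against 38.7% of all genes. Igf1r had 3, 0 and 0 counts, while the insulin receptor Insr had 924, 914 and 399. Hgf and the liver FGF receptor Fgfr4 had none.

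The line carried both epithelial and mesenchymal genes. Of 48 genes listed for keratins, junctions and their regulators, 30 were expressed (62.5%, against 38.7% of all and 50.0% of protein-coding genes). The list also holds mesenchymal genes, of which Vim, Snai1, Zeb1 and Zeb2 were expressed, so its share is not one of epithelial genes alone. Vim had 33292, 33315 and 31934 counts (1366 ± 159 CPM per kb), level with Krt8, at a ratio of 1.12 ± 0.0309 per kb. Desmosome and adherens genes such as Jup (182 ± 24.3 CPM per kb), Ctnna1 (222 ± 20.8) and Ctnnb1 (139 ± 10.5) were present, as were the gap junction gene Gja1 (127 ± 6.41) and the claudin Cldn3 (66.6 ± 12.8). E-cadherin, Cdh1, was a trace with 2, 15 and 3 counts, while N-cadherin, Cdh2, had 883, 905 and 358. Epcam and the liver gap junction gene Gjb1 had no counts. Of 46 keratin genes, 8 were expressed (17.4%), and of 23 claudins, 3 (13.0%), both below the 38.7% of all genes.

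Of 14 bile duct markers, 6 were expressed (42.9%, between the 38.7% of all genes and the 50.0% of protein-coding ones). Of the others, 2 were traces and 6 were at the floor. Besides Krt7, osteopontin (Spp1, 1934, 1748 and 1854 counts) and Sox9 (1164, 1140 and 808) were present, while Krt19 had 22, 26 and 20. Epcam, Cftr, Prom1 and Ggt1 had no count.

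Markers of other liver cells were partly present, each list with defining members at 0. Of 22 blood cell genes, 5 were expressed (22.7%, against 38.7% of all and 50.0% of protein-coding genes). Their list summed to 83.9, 93.0 and 129 CPM. The macrophage genes Csf1r (714, 727 and 857 counts), Cd14 (248, 254 and 302) and Lyz2 (163, 207 and 187) led the expressed ones. Ptprc, carried by all white blood cells, had 5, 3 and 0 counts, and Emr1, Clec4f, Timd4, Marco and Cd3e had none. Of 13 endothelial genes, 4 were expressed (30.8%), with a summed level between 13.0 and 21.7 CPM. Eng is not among the 13, as it is named only in a row shared with Ak1. That row had 592, 536 and 574 counts and cannot be split. Lyve1 had 111, 71 and 41 counts, and Cdh5, Tek, Stab2, Emcn and Erg had none.

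Of 19 genes of fibroblasts and stellate cells, 9 were expressed (47.4%, against 38.7% of all and 50.0% of protein-coding genes). The list's summed level lay between 5723 and 7970 CPM, most of it from Fn1, Vim and Col1a1. Col1a1, which encodes a chain of type I collagen, had 17296, 17646 and 10294 counts (217 ± 34.8 CPM per kb), while Col1a2, which encodes its partner chain, had 3, 0 and 6. The proteoglycan Dcn had 5576, 5221 and 4961 counts (212 ± 19.9 CPM per kb), and Thy1, Lum, Lox, Lrat, Reln and Hand2 had none. Which cells the counts of these lists came from was not tested.

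Olfactory, vomeronasal and taste receptors and skin keratin-associated proteins are families not known from liver, and most of their genes were at the floor. Where their counts came from was not tested. Shares expressed are to be read beside the 38.7% of all genes and the 50.0% of protein-coding genes. Of 1109 olfactory receptor genes, 1 was expressed (0.0902%), Olfr417, with 18, 40 and 20 counts, and 1086 had no count. Of 287 vomeronasal receptor genes, 2 were expressed (0.697%), Vmn2r96 with 156, 85 and 41 counts and Vmn1r53 with 50, 42 and 33. None of 38 taste receptor genes or 52 keratin-associated protein genes of skin was expressed. Hox genes carry positional identity, and 6 of 33 were expressed (18.2%, below both shares). Hoxa10 led them with 376, 476 and 417 counts (14.9 ± 2.58 CPM per kb). Ribosomal protein genes were expressed in 69 of 74 cases (93.2%), with a median of 169 CPM per kb over the 74.

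**Figure D4:**
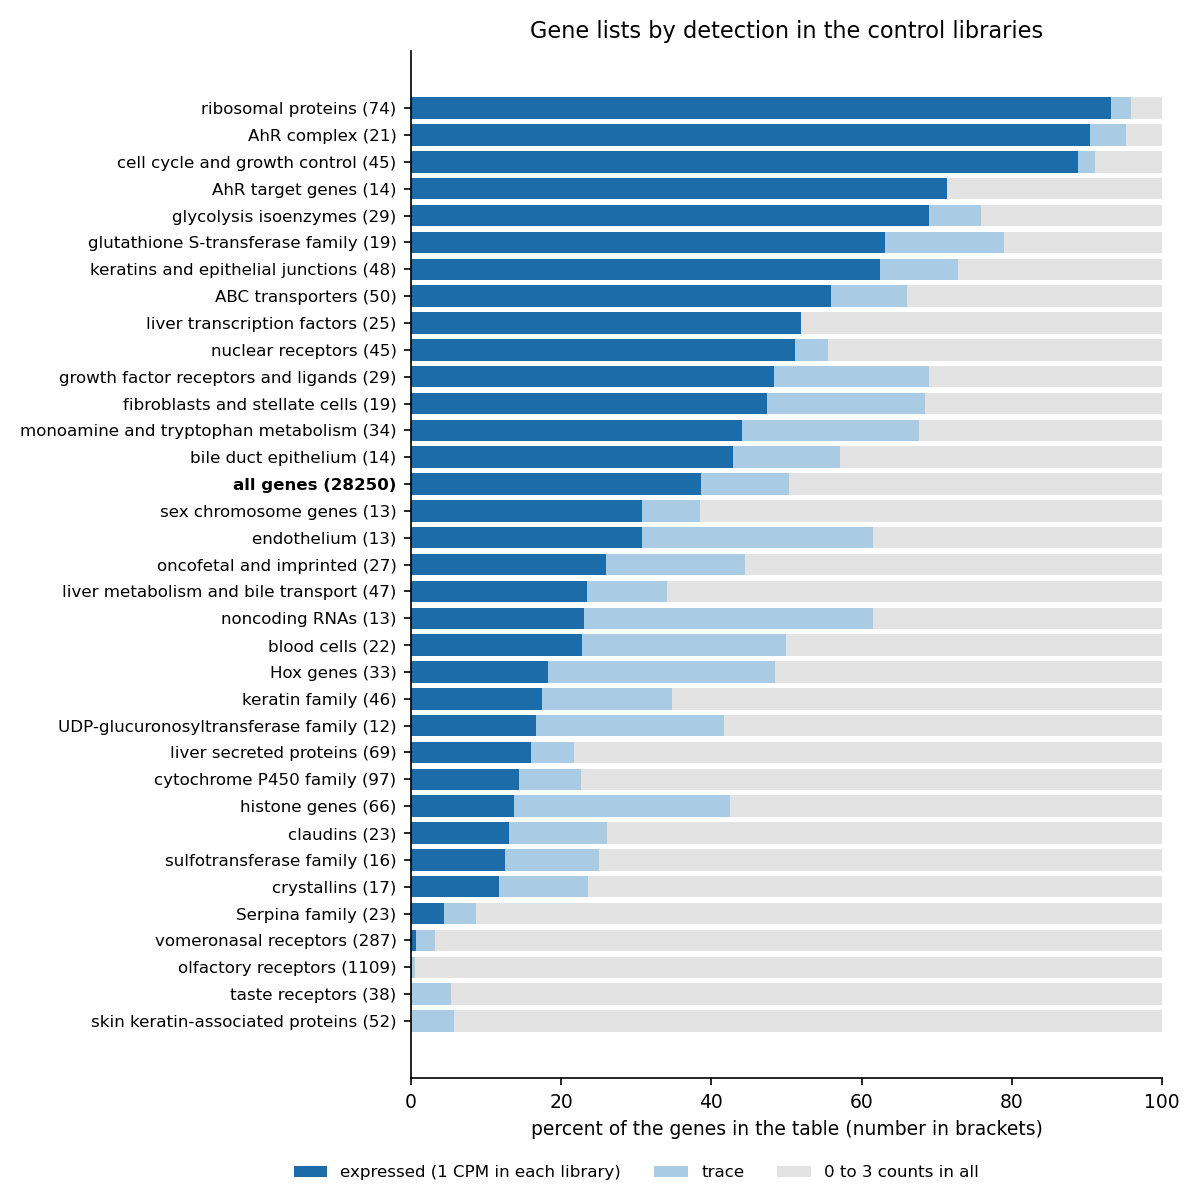
Share of the genes of each list (bars, horizontal axis in percent, number of genes in brackets) that was expressed, a trace or at the floor in the 3 control libraries, ordered by the share expressed, with all 28250 genes in bold. Ribosomal (93.2%), AhR complex (90.5%) and cell-cycle lists (88.9%) lie above all genes (38.7%), and liver secreted proteins (15.9%) and cytochrome P450 genes (14.4%) below. Of protein-coding genes, which are not drawn, 50.0% were expressed.

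Xist, the RNA that silences an X chromosome in female cells, had 7532, 6384 and 1567 counts, and all 8 Y-linked genes in the table had none. The escape gene Ddx3x had 11972, 12290 and 6422. Tsix, which is transcribed across Xist on the opposite strand, had 422, 449 and 0 counts. Whether counting used strand is not given, so reads of Xist and Tsix cannot be told apart. Tsix was the one gene with a mean of at least 3 CPM in replicates 1 and 2 and no count in replicate 3.

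Replicate 3 was compared with the mean of replicates 1 and 2 over the 11389 genes with a mean of at least 1 CPM and a count in each library. In replicate 3, 336 genes (2.95%) were more than 2-fold higher and 907 (7.96%) more than 2-fold lower. Between replicates 1 and 2 the corresponding counts were 109 and 102. The lowest by this ratio, among genes with a mean of at least 20 CPM, was Cbl, a ubiquitin ligase of receptor kinases, with 752, 697 and 34 counts. Raph1 (569, 445 and 27), Bmpr2 (1089, 1039 and 107), LOC100503159, Tnks (2002, 1826 and 205) and Xrn1 (440, 388 and 45) followed. The highest was Capn12, a calpain protease, with 392, 507 and 1048 counts. LOC100505142, LOC100505138, 2410004N09Rik, LOC100503730 and LOC100502628 came next, each on a row under 1 kb.

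The ratio followed transcript length. The median log2 ratio was 0.81 over 180 genes with rows of up to 500 bases, 0.14 over 2572 genes of 2000 to 3000 bases, and -1.08 over 469 genes of more than 8000 bases. Each step in length between them had a lower median than the one before. For replicate 1 against 2 the median stayed between -0.01 and 0.04 in all 9 length classes. Of the 469 longest genes, 264 were more than 2-fold lower in replicate 3 and 1 was more than 2-fold higher. Ribosomal protein genes, with a median length of 794 bases, had a median log2 ratio of 0.79, with 7 of 69 more than 2-fold higher and none lower. ABC transporters (4929 bases) had a median of -0.63, with 7 of 28 more than 2-fold lower.

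Within single genes, the difference lay towards the 5′ end. For 675 genes, the table holds a row at the 5′ end and a separate row at the 3′ end, with no overlap between them, as placed by matching accessions in GENCODE M21. The median log2 ratio of replicate 3 to the mean of replicates 1 and 2 was -0.67 for the 5′ rows and 0.25 for the 3′ rows. The 3′ row had the higher ratio in 624 of the 675 genes (92.4%), with a median difference of 0.85. The rows were of like length, with medians of 687 bases at the 5′ end and 733 at the 3′ end. For replicate 1 against 2 the 3′ row had the higher ratio in 380 genes (56.3%), with a median difference of 0.05.

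Top2a had 727, 780 and 111 counts in its 5′ row and 2486, 2339 and 2566 in its 3′ row. Hsp90ab1, whose whole-row level hardly differed between libraries, had 13876, 13474 and 6955 at the 5′ end and 12360, 11627 and 11771 at the 3′ end. RNA integrity and library dates of the 3 libraries are not given in the labels, and what set replicate 3 apart was not tested. Levels of long transcripts such as Fn1, Xist and Ncor1 therefore depend on which libraries are averaged.

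**Figure D5:**
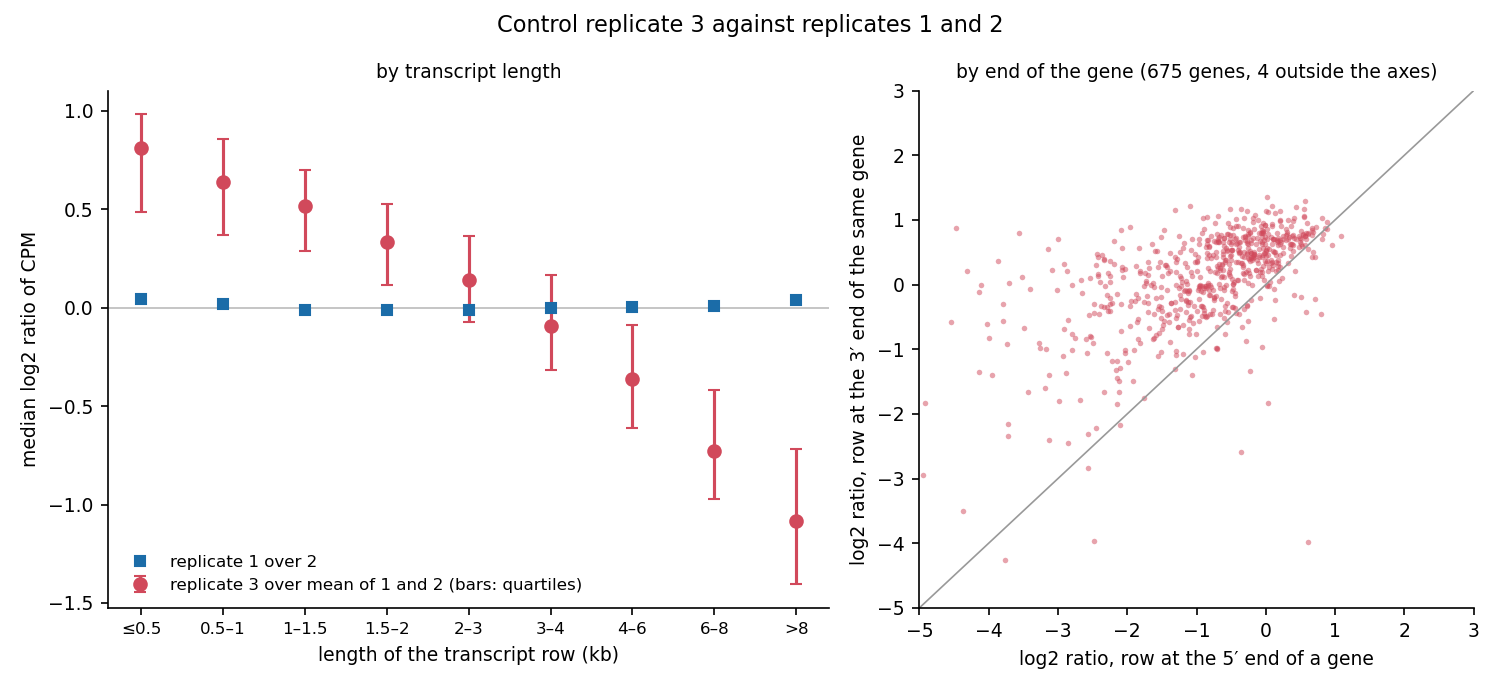
Left, median log2 ratio of CPM (vertical axis) by length of the transcript row in kb (horizontal axis), for replicate 3 over the mean of replicates 1 and 2 (red, bars from the lower to the upper quartile of genes) and for replicate 1 over 2 (blue). Right, the ratio for replicate 3 in the row at the 3′ end of a gene (vertical axis) against the row at its 5′ end (horizontal axis), 1 point per gene, 4 of 675 genes outside the axes; 624 lie above the diagonal line of equality.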

How the data were processed

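The deposited tables, 1 for each pair of groups, list 189660 transcripts with read counts per library; per the file headers the counts are whole numbers without normalization by the authors. The 3 control columns were read from the table of FICZ and control libraries, and all 3 are identical in the table of tryptamine and control. The deposited table also gives transcript length, another quantity in bases per the file headers, and a value headed NE, treated as a score because the authors' header does not define it, and used only to rank genes. The submitters' processing notes name DESeq, whose version is not given, for the authors' comparisons, which were not used here. The aligner, the genome build, the rule by which reads were counted and its use of strand: not given in the sources used here. Some rows carry accessions of other species.

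Rows without a gene identifier (22128) or assigned to several loci (5653) were left out of totals. Of the 161879 other rows, the one with the highest mean control count stood for each of 28250 genes, since rows of a gene share reads. No test across genes was run, because the 3 libraries form 1 group. Code was tested on simulated data. Python 3.11.15, pandas 2.3.3 and numpy 2.4.6 were used. The genes and lists were chosen with earlier results of these data known. Named were the 7 markers, the 20 highest genes by each measure, up to 10 highest expressed and 6 floor members of each list (4 highest for other cell types), and the 6 genes at each extreme for replicate 3. Genes named outside this rule, such as Apoa1, Apob, Fga, Fgb, Fgg, F2, Saa1, Nr1i2, Ppara, Cps1, Cyp7a1, Ddc, Tph2, Cdh1, Cdh2, Igf2, Col1a2, Ptprc, Tsix, Insr, Crebbp and Ep300, were chosen after their values were seen, as was the comparison of 5′ and 3′ rows. For that comparison, 39113 rows were placed by accession in GENCODE M21 (88.8% with a length within 1% of the deposited one), and each row needed a mean of at least 50 counts in replicates 1 and 2. Some members of the lists are counted but not reported by name here.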

Additional observations from a re-analysis of the deposited data

Results flagged for a closer look

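Rows outside the gene-level analysis held a share of the counts. Taking the highest row of each named locus, rows with no gene identifier or with several loci made up 6.06% of the counts in control replicate 1, 6.01% in replicate 2 and 6.66% in replicate 3. The highest of these was mt-Nd1, a mitochondrial subunit of respiratory complex I, with 19383, 17171 and 13334 counts. Rps3/Snord15b had 15833, 15031 and 17619 and Hnrnpu/AI503316 had 16554, 16105 and 14229.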

How the results depend on the processing

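Of the values for the whole set of genes and the liver lists, 56 recomputed under another setting stayed within 1.5 times the reported count or 1 SD, and 5 did not. Of the recomputed levels of the 7 markers, 71 stayed within 1 SD and 20 did not. With the median length of all rows of a gene, Krt7 moved from 269 to 700 and Ahr from 4.28 to 8.76 CPM per kb. With all transcripts of a gene summed, the 10 highest genes took 4.86% of the counts and the 100 highest 19.5%, against 3.71% and 15.3% as reported. Because rows of a gene share reads, this sum counts reads repeatedly, and it moved Krt18 to 654, Krt8 to 434 and Alb to 93.5 CPM per kb. At a mean of at least 10 CPM, 109 genes were more than 2-fold higher in replicate 3 and 558 lower; with no CPM filter 607 were higher. These filters change how many low genes enter the comparison. Leaving out 1 library at a time gave 11024 to 11148 expressed genes, 11 to 12 liver secreted genes, 3.62% to 3.75% for the 10 highest and 14.9% to 15.5% for the 100 highest. With replicate 1 or 2 left out, 411 to 443 genes were more than 2-fold higher in replicate 3 and 899 to 949 lower. Depth limits what a count of 0 can show to 0.0755 CPM over the 3 libraries. No paired analysis was possible because only 1 group was described and no test between groups was run.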
